A study of Rattus norvegicus with 28 samples.

Results

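Gene expression in the amygdala was compared between untreated rat pups at 12 days after birth and saline-treated pups at 8 days. The comparison rested on 22 of the 28 arrays of the study, 8 from 12-day pups (4 paired and 4 unpaired) and 14 from 8-day pups (7 paired and 7 unpaired), chosen by the age, agent and training that the labels give. The other 6 arrays came from 8-day pups given corticosterone and entered only where named. Every pup had a 45-min session of 11 peppermint odors of 30 s and tail shocks of 1 s at 0.5 mA, and the tissue was taken directly afterwards. In paired pups the shock came at the end of the odor, and in unpaired pups 2 min after it, so no group was naive to odor or shock. The labels name no strain or genotype, and whether tissue was pooled over pups is not stated, so p-values measure only the spread between these samples. The title of the series sets these ages in the context of a transition in infant learning.

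The amygdala is the forebrain structure through which odors and other cues come to predict threat. In younger rat pups, an odor paired with shock comes to be approached, and in older pups it comes to be avoided. Over the same days the rodent forebrain goes through a burst of postnatal maturation: oligodendrocytes begin to wrap axons in myelin, astrocytes take up their role in clearing glutamate, progenitors leave the cell cycle, young neurons finish extending their axons, and receptors and ion channels exchange juvenile for adult subunits.

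The arrays were of 2 designs, and each age was present on both: 4 arrays of each age on the larger design (replicates 3 and 4), and 10 arrays at 8 days against 4 at 12 days on the smaller design (all others). The authors had normalized each condition on its own, with array medians of 6.05 to 6.19 log2 at 8 days and 6.38 to 6.46 at 12 days, so values were quantile-normalized within each design, and all levels below are normalized log2 values. An age difference is the 12-day mean minus the 8-day saline mean in log2 units, adjusted for training, and 1 unit is a 2-fold change. A gene is said to have risen or fallen where limma gave an adjusted p under 0.05 on both designs with the same sign. Age went together with the agent (saline or none) and with the authors' processing of each condition, which cannot be told apart here, and an offset shared by all arrays of a condition would appear on both designs.

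Arrays of 1 age on the larger design correlated at 0.996 or more, and those of different ages at 0.975 to 0.981. The saline arrays of the smaller design formed 2 sets, replicates 1 and 2 (correlations of 0.989 to 0.997 among themselves) and replicates 5 to 7 (0.991 to 0.996), with 0.974 to 0.985 between the sets. The 12-day arrays correlated with the first set at 0.972 to 0.980 and with the second at 0.960 to 0.967. No 12-day array had a replicate number of 5 to 7. The fit held age and training but not the sets, so their difference entered the age difference of the smaller design and its standard error. For some genes that differ between the sets, results are given for each set. For others only the difference from both sets together is given, which does not show that the sets were alike. Against replicates 1 and 2, Kcnh1 differed by 1.58, Vip by 1.69 and Nr2f2 by -0.20. Against replicates 5 to 7 these genes differed by 3.77, 3.58 and -1.30.

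Widespread differences were found. Of 15866 probe sets, 10826 (68.2%) were called on the larger design, 37.1% higher and 31.1% lower at 12 days, and 8410 (53%) on the smaller one, 28.9% higher and 24.1% lower. On both designs with the same sign 6989 (44.1%) were called: 3800 probe sets (24%) rose and 3189 (20.1%) fell from 8 to 12 days, and 62 were called with opposite signs. A difference of at least 1 log2 on both designs was found for 1151 probe sets (7.25%), 596 rising (3.76%) and 555 falling (3.5%). At 1 probe set per gene, 46.7% of 4837 genes were called: 1359 (28.1%) rose and 898 (18.6%) fell, 214 (4.42%) and 135 (2.79%) of them by at least 1 log2 on both designs. These shares are the background for the gene groups below. Ages without overlap on both designs, in the same direction, were found for 5255 probe sets (33.1%), so such separation was common. No level filter was applied, so list counts include small differences at low levels, as for Kcnb2 (0.03 and 0.05). With a mean of at least 5 log2 required, 3794 probe sets were called on both designs. With values centred on array medians instead, the median of all probe sets shifted to -0.24 and -0.27 log2 on the larger and smaller designs, and the split became 2397 higher and 6927 lower. List counts given below with this centring stand beside that split, not beside 28.1% and 18.6%. Added falls in a list under this centring accompany the shift of all probe sets. Changes described here are relative to the quantile-normalized distribution, whose median difference was 0.01 on each design.

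**Figure D1:**
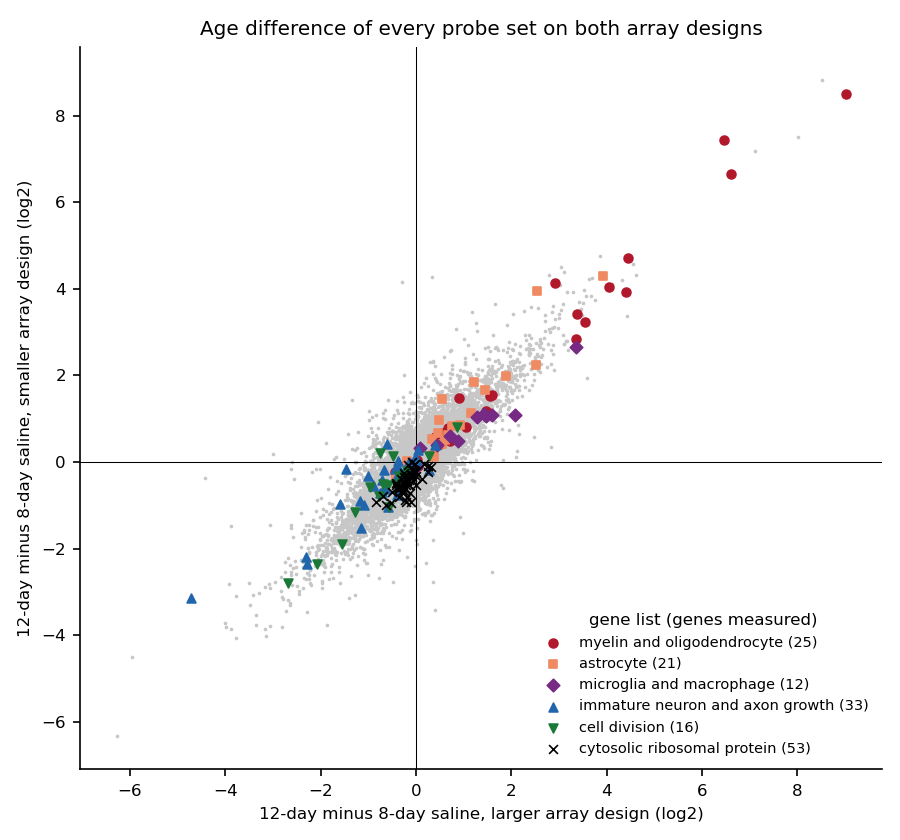
Each point is 1 probe set, placed by its 12-day minus 8-day saline difference (log2) on the larger (x axis) and smaller (y axis) array design; coloured symbols are the measured genes of 6 gene lists, and grey points are the 15866 probe sets. Myelin genes reach 9.01 and 8.50, the highest of the coloured points, while ribosomal protein genes cluster just below 0.

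The dissected tissue carried RNA of neurons and glia at both ages. The summed linear level of 11 genes used as amygdala markers ran from 10022 to 11995 at 8 days and from 11883 to 13355 at 12 days on the larger design. That sum on the smaller design ran from 8828 to 12391 and from 14030 to 15501, without overlap. Of these 11 genes 2 rose (Crh and Slc17a7) and 2 fell (Nr2f2 and Cyp26b1). Slc17a7, with a mean of 9.57 at 8 days and 12.21 at 12 days on the smaller design, weighed heavily in this sum. It is also among the hippocampus and cortex neuron genes below, so the 2 sums are not independent. Markers of neighbouring tissue were not alike between designs. The sum of 15 striatal projection neuron genes was 11868 to 17486 at 8 days and 18100 to 19937 at 12 days on the larger design, and 3138 to 8328 and 4220 to 7225 on the smaller one. The sum of 11 choroid plexus genes was 4044 to 16950 and 1798 to 14695 on the larger design, and 9377 to 20156 and 20466 to 23164 on the smaller one. The sum of 10 hippocampus and cortex neuron genes was higher at 12 days on both designs without overlap, 10248 to 12052 against 7595 to 9661 and 17025 to 19223 against 4655 to 13434. The part of dissection in the results below was not tested. In such bulk tissue, more cells of a type cannot be told apart from more RNA per cell.

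Myelin genes showed the largest increases. Of 25 measured genes of the myelin and oligodendrocyte list, 21 rose and 1 fell, against 28.1% and 18.6% of all genes, and 14 rose by at least 1 log2 on both designs. The list's median difference was 1.54 log2 on the larger and 1.47 on the smaller design, where the median over all genes was 0.02 on each. The summed level of the list was 11855 to 14710 at 8 days and 48111 to 65355 at 12 days on the larger design, and 14644 to 23341 against 65727 to 79663 on the smaller one.

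Mobp, which encodes a small basic protein of compact central myelin, headed the ranking of increases. Its probe set 1370500_a_at was at 2.34, 2.33, 2.33 and 2.36 in the 8-day arrays of the larger design and at 10.21, 10.93, 11.12 and 11.14 in the 12-day arrays. The 8-day arrays of the smaller design ran from 2.25 to 3.70 with a median of 2.29, and the 12-day arrays were at 11.22, 11.66, 11.14 and 11.36. The ages did not overlap on either design, and the difference was 8.51 ± 0.18 (SE, adjusted p = 3.2e-08) and 8.82 ± 0.26 (adjusted p = 6.9e-12). About 38.2% of probe sets had a mean under 4 log2 in the 8-day arrays of the larger design, so the 8-day values of Mobp lay among the lowest levels, where this kind of summary compresses differences and the size of the change is not exact.

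Mbp, which encodes the basic protein that holds myelin membranes together, was already high at 8 days and rose further. Its brighter probe set was at 10.92, 10.10, 10.75 and 9.99 at 8 days and at 13.57, 13.86, 13.92 and 13.84 at 12 days on the larger design. Smaller-design arrays lay between 10.89 and 12.18 at 8 days, with a median of 11.31, and were at 14.20, 14.41, 14.26 and 14.12 at 12 days. No 12-day array overlapped an 8-day array, and the mean level was 10.3-fold and 7.15-fold higher, a log2 difference of 3.36 ± 0.23 (adjusted p = 1.7e-05) and 2.84 ± 0.22 (adjusted p = 1.5e-07). Against saline replicates 1 and 2 alone the Mbp difference was 2.39, and against replicates 5 to 7 it was 3.11. Another Mbp probe set rose by 4.44 ± 0.34 and 3.91 ± 0.49.

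Genes of tight junctions, surface proteins and lipids of the sheath rose with them. Cldn11, the claudin that seals the layers of the sheath, rose by 7.11 ± 0.19 and 7.19 ± 0.14, and by 3.55 and 3.24 in a second probe set. Mal and Pllp, proteolipids of myelin membrane, rose by 6.45 ± 0.33 and 7.43 ± 0.10, and by 4.32 ± 0.17 and 4.19 ± 0.29. Mog, on the outermost lamella, rose by 6.60 ± 0.23 and 6.66 ± 0.17, and Mag, which faces the axon, by 4.41 ± 0.20 and 3.93 ± 0.26. Ugt8, the enzyme of galactolipid synthesis, rose by 4.45 ± 0.22 and 4.70 ± 0.59, with a second probe set near 0 (0.01 and 0.01), and Aspa, which releases acetate from N-acetylaspartate in oligodendrocytes, by 4.04 ± 0.15 and 4.03 ± 0.15. Apod, a lipid carrier made by oligodendrocytes and astrocytes, rose by 4.61 ± 0.21 and 4.33 ± 0.24.

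Not every gene of the lineage moved in this way. The lineage factors Sox10 and Olig1 rose by 1.55 and 1.52 and by 0.55 and 0.67. Enpp2, Sirt2 and Cntn2 were not called on both designs, and Qdpr, which regenerates tetrahydrobiopterin, fell by 0.44 and 0.24. Of 8 genes of the oligodendrocyte precursor list 2 rose and 2 fell. Vcan, a proteoglycan of precursors and juvenile matrix, had a difference of -2.57 ± 0.14 (adjusted p = 5.6e-06) and -2.45 ± 0.94 (adjusted p = 0.043) in probe set 1371232_a_at. Its difference on the smaller design was -0.31 against saline replicates 1 and 2 and -3.86 against replicates 5 to 7, and its call was lost in 10 of the 22 fits that left out 1 array. A brighter Vcan probe set differed by -1.98 and -1.72. Of 18 cholesterol synthesis and uptake genes 3 rose and 5 fell, with Fdft1 (squalene synthase) at -0.81 ± 0.07 and -0.78 ± 0.09 and Hmgcs1 not called at 0.12 and 0.25.

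Astrocyte genes rose in a similar share. Of 21 measured, 16 rose (76.2%) and 1 fell (4.76%), against 28.1% and 18.6% of all genes, with list medians of 0.61 and 0.84 log2. Slc1a2, the main glutamate transporter of astrocytes, was at 2.29, 2.27, 2.26 and 2.28 at 8 days on the larger design and at 6.12, 6.36, 6.08 and 6.20 at 12 days. The 8-day arrays of the smaller design ran from 2.15 to 4.42 with a median of 2.23, and the 12-day arrays were at 6.64, 6.55, 6.62 and 7.35. The ages did not overlap, with differences of 3.91 ± 0.06 and 4.29 ± 0.37, and a second probe set rose by 0.79 and 0.92. Gjb6, the connexin that couples mature astrocytes, rose by 2.54 ± 0.19 and 3.95 ± 0.30, Ntsr2, a neurotensin receptor of astrocytes, by 2.53 ± 0.24 and 2.23 ± 0.13, and Fgfr3, a growth factor receptor of the lineage, by 1.90 ± 0.08 and 1.98 ± 0.22. Gfap, the intermediate filament of astrocytes, rose by 1.16 ± 0.06 and 1.14 ± 0.25. Aqp4, the water channel of astrocyte endfeet, was not called on both designs (-0.19 and 0.03). Fabp7, a lipid-binding protein of radial glia and young astrocytes, fell by 0.85 ± 0.06 and by 1.17 ± 0.11.

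Microglial and vascular genes also shifted upward. Of 12 microglia and macrophage genes 9 rose (75%) and none fell. Of 14 endothelium and pericyte genes 8 rose (57.1%) and 1 fell (7.14%), against 28.1% and 18.6% of all genes. With values centred on array medians, 6 rose and 2 fell in the first list and 8 rose and 2 fell in the second. Aif1, an actin-binding protein of microglia, was at 7.16, 6.40, 6.15 and 6.21 at 8 days and at 8.55, 8.19, 8.73 and 8.80 at 12 days on the larger design. Values on the smaller design ran from 5.46 to 7.14 at 8 days, with a median of 6.54, and were at 7.79, 7.17, 7.71 and 7.89 at 12 days, a difference of 1.09 ± 0.25 (adjusted p = 0.0026). The closest pair of arrays of different age there lay at 7.14 and 7.17. Lyz2 (lysozyme) rose by 1.47 ± 0.12 and 1.06 ± 0.18, Laptm5 (a lysosomal membrane protein of immune cells) by 1.42 ± 0.19 and 1.11 ± 0.22, and C1qb (a complement component) by 1.60 ± 0.09 and 1.08 ± 0.29. The general leukocyte gene Ptprc was not called on both designs (-0.02 and 0.00). In vessels, the blood-brain barrier transporters Slco1a4 (organic anions), Abcb1a (drug efflux) and Slc2a1 (glucose) rose by 2.55 and 2.45, by 1.67 and 1.37, and by 0.93 and 1.14. Haemoglobin and other red blood cell genes went the other way, with 4 of 4 lower at 12 days at 1 probe set per gene. In another probe set 1 of these genes rose. In these counts Hba1 and Hbb differed by -0.17 and -0.15 against saline replicates 1 and 2. Against replicates 5 to 7 they differed by -0.73 and -0.95. Hbb probe set 1371102_x_at differed by -0.27 against replicates 1 and 2 and by -1.97 against replicates 5 to 7.

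**Figure D2:**
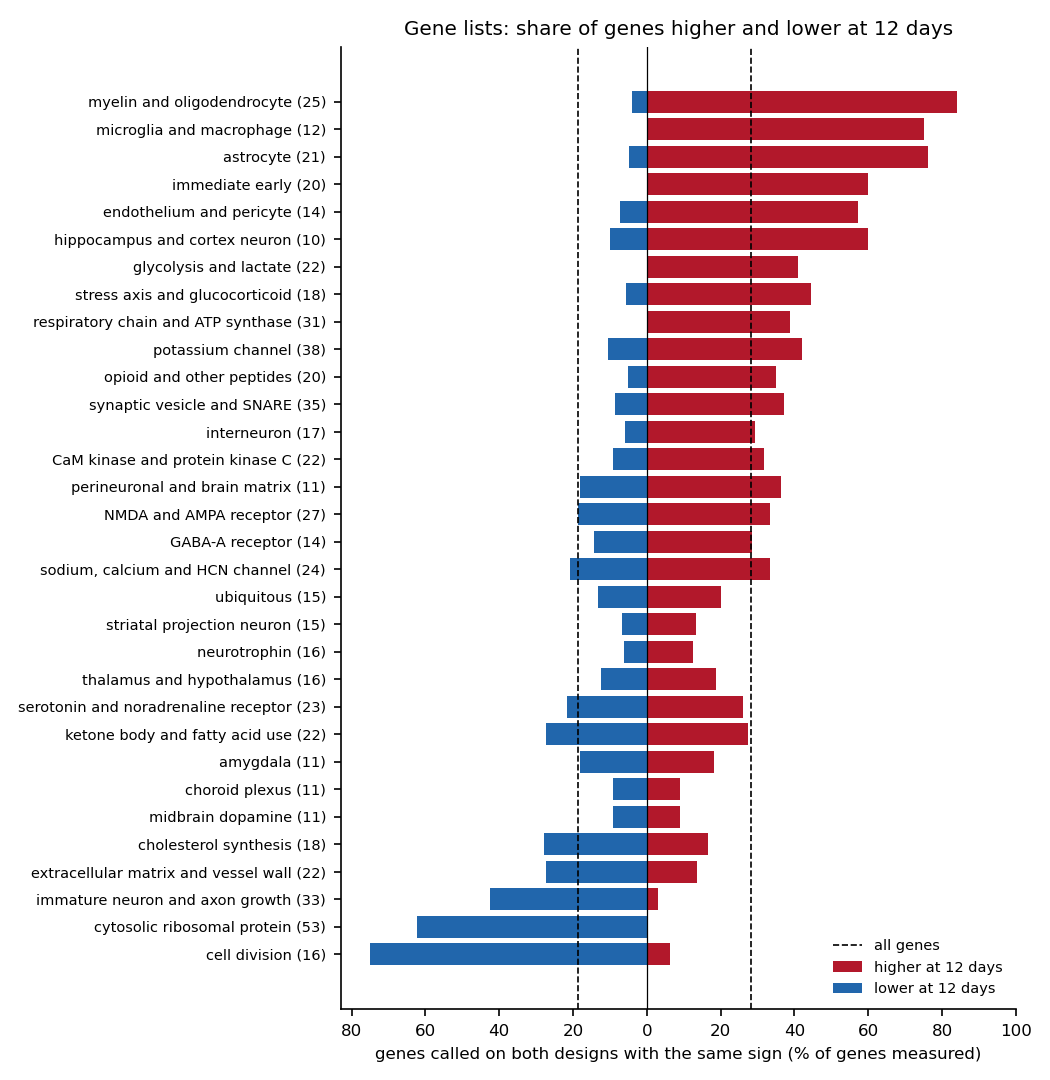
For each gene list with at least 10 genes measured (number in brackets), bars give the share of genes called on both designs with the same sign, higher at 12 days to the right and lower to the left; dashed lines mark the shares over all genes, 28.1% and 18.6%. Myelin (84%), astrocyte (76.2%) and microglia genes (75%) extend furthest to the right, and cell division (75%) and ribosomal protein genes (62.3%) furthest to the left.

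Genes of dividing cells fell. Of 16 measured cell division genes 12 fell and 1 rose (Ccnd1), against 18.6% and 28.1% of all genes, with list medians of -0.64 and -0.53. Ccnb1, the cyclin that drives entry into mitosis, was at 6.66, 7.09, 7.15 and 6.65 at 8 days and at 4.21, 4.30, 4.14 and 4.15 at 12 days on the larger design. The smaller design gave 6.54 to 7.27 at 8 days, with a median of 6.89, and 4.09, 4.10, 4.10 and 4.11 at 12 days. The ages were fully apart, with differences of -2.69 ± 0.14 (adjusted p = 3.8e-06) and -2.80 ± 0.13 (adjusted p = 6.2e-10). Ages were apart on both designs for 33.1% of all probe sets. A second Ccnb1 probe set differed by -2.27 and -2.56 and another was not called on both designs (0.03 and -0.33).

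Cdk1, the kinase that Ccnb1 activates, was at 6.86, 7.39, 6.97 and 7.14 at 8 days and at 5.52, 5.27, 5.80 and 5.54 at 12 days on the larger design, a difference of -1.56 ± 0.15. Values on the smaller design ran from 6.66 to 7.71 at 8 days, with a median of 7.39, and were at 5.52, 5.18, 5.61 and 5.25 at 12 days, a difference of -1.88 ± 0.20. Both designs kept the ages apart. Mcm6, part of the helicase that opens DNA for replication, fell by 2.06 ± 0.12 and by 2.35 ± 0.18, and Pttg1 (securin), which holds sister chromatids together until anaphase, by 2.65 ± 0.07 and by 3.26 ± 0.32. Probe sets of Top2a, the topoisomerase of mitotic chromosomes, disagreed: 1388650_at differed by -1.38 ± 0.07 and -1.31 ± 0.11, while the brighter 1369990_at was not called on both designs (0.26 and 0.15).

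The upstream sequences of 3 of these genes are shown because promoters of mitotic genes in mammals are known to share 2 short motifs. These are the CCAAT box, bound by NF-Y, and the cell cycle genes homology region TTTGAA. Each run is the 250 bases before the annotated start in RefSeq (build GRCr8), 5′ to 3′ on the gene's strand, with both motifs in capitals on either strand (ATTGG and TTCAAA are the reverse letters). The windows are chr20:19265043-19265292 (plus strand) for Cdk1, chr2:33655226-33655475 (minus strand) for Ccnb1 and chr10:103571896-103572145 (plus strand) for Birc5, which encodes survivin.
Cdk1: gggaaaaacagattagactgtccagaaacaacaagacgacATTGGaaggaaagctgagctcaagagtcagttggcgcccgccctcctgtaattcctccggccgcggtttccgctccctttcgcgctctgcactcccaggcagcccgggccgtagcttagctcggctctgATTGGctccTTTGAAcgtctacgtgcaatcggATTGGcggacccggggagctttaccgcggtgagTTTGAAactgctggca
Ccnb1: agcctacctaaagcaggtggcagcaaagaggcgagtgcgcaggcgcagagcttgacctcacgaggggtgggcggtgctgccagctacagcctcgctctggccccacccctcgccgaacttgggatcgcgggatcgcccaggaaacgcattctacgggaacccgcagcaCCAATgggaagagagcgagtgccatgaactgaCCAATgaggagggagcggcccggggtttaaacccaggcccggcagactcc
Birc5: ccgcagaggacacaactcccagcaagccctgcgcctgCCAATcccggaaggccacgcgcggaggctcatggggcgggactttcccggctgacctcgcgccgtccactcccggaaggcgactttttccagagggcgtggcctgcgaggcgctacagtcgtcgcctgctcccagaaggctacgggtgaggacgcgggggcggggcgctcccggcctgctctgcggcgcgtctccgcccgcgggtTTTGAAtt
Cdk1 held 3 CCAAT boxes and 2 TTTGAA matches, Ccnb1 held 2 CCAAT boxes, and Birc5 held 1 of each. Of the 12 cell division genes that fell, 11 had a window in the RefSeq table, and 9 of them held CCAAT, which 34% of all 33469 windows of that length hold. TTTGAA was in 5 of the 11 and in 16.2% of all windows. Of the 21 myelin genes that rose, 15 had a window, of which 3 held CCAAT, 0 held TTTGAA and 1 held AACAATG, a motif of SOX factors that was in 0 of the 11 cell division windows and 3.44% of all windows. The motifs do not overlap each other in these letters, and a match is a description of sequence, not of binding.

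Many genes of newly born and axon-extending neurons fell as well. Of 33 measured, 14 fell (42.4%) and 1 rose (3.03%), against 18.6% and 28.1% of all genes, and the list medians were -0.60 and -0.37. Dcx, the microtubule protein of migrating neurons, was at 11.12, 11.42, 11.06 and 11.42 at 8 days and at 9.24, 8.65, 8.98 and 9.03 at 12 days on the larger design. Its level on the smaller design was 10.40 to 11.19 at 8 days, with a median of 10.91, and 8.71, 8.24, 8.35 and 8.67 at 12 days. The ages did not overlap, and the 12-day mean was 4.85-fold and 5.11-fold lower, log2 differences of -2.28 ± 0.15 (adjusted p = 1.3e-05) and -2.35 ± 0.16 (adjusted p = 3.6e-08). A second Dcx probe set was not called on both designs (-0.07 and -0.12).

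Sox11, a transcription factor of immature neurons, was at 8.03, 8.35, 8.15 and 8.30 at 8 days and between 3.46 and 3.51 at 12 days on the larger design. On the smaller design it ran from 5.55 to 7.18 at 8 days, with a median of 6.89, and from 3.39 to 3.48 at 12 days. Its differences were -4.72 ± 0.09 and -3.15 ± 0.33, and within the smaller design -2.58 against saline replicates 1 and 2 and -3.59 against replicates 5 to 7. Nes (nestin, the filament of neural progenitors) fell by 2.31 ± 0.18 and by 2.19 ± 0.15. Ncam1, an adhesion molecule of growing neurites, fell by 1.15 ± 0.12 and by 1.53 ± 0.15, and Gap43, a protein of growth cones, by 0.76 ± 0.03 and by 0.72 ± 0.14. Stmn2, another growth cone protein, was not called on both designs in its brighter probe set (-0.23 and -0.16), while its second probe set differed by -0.65 and -0.77.

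The gene with the largest decrease by the ranking used was Gpc2, a glypican of axon membranes in the developing brain, which fell by 3.97 ± 0.12 and by 3.81 ± 0.25. Bid, a member of the Bcl-2 family of apoptosis regulators, fell by 3.35 ± 0.07 and by 3.76 ± 0.26. Pafah1b3, a catalytic subunit of a brain acetylhydrolase that is high during development, fell by 2.68 ± 0.18 and by 3.19 ± 0.24, and Klf6, a zinc finger factor, by 3.28 ± 0.11 and by 3.02 ± 0.17. For Lin7c, a scaffold of cell junctions, the 8-day arrays of the smaller design spread from 2.89 to 8.19, and the difference was -1.48 against saline replicates 1 and 2 and -4.56 against replicates 5 to 7. Isl1, a homeobox factor of striatal and other forebrain neurons, fell by 3.18 ± 0.21 and by 3.85 ± 0.70, with values of -2.37 and -4.89 against the same sets.

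Matrix genes moved in both directions. Of 22 matrix and vessel wall genes 6 fell and 3 rose, and their summed level was 8497 to 10706 at 8 days and 8176 to 8553 at 12 days on the larger design, and 9264 to 14394 against 10576 to 12161 on the smaller one. Col5a1, a fibrillar collagen chain, fell by 1.49 ± 0.07 and by 1.48 ± 0.09, and Tnc (tenascin C, a juvenile brain matrix glycoprotein) by 0.92 ± 0.13 and by 1.68 ± 0.11. Col1a1 was not called on both designs (-0.62 and -0.14). In the perineuronal matrix list 4 of 11 genes rose and 2 fell, and 3 rose and 5 fell with values centred on array medians. Hapln1, a link protein of perineuronal nets, rose by 1.45 ± 0.24 and 1.67 ± 0.38, and Bcan (brevican) by 0.54 ± 0.07 and 0.54 ± 0.11.

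**Figure D3:**
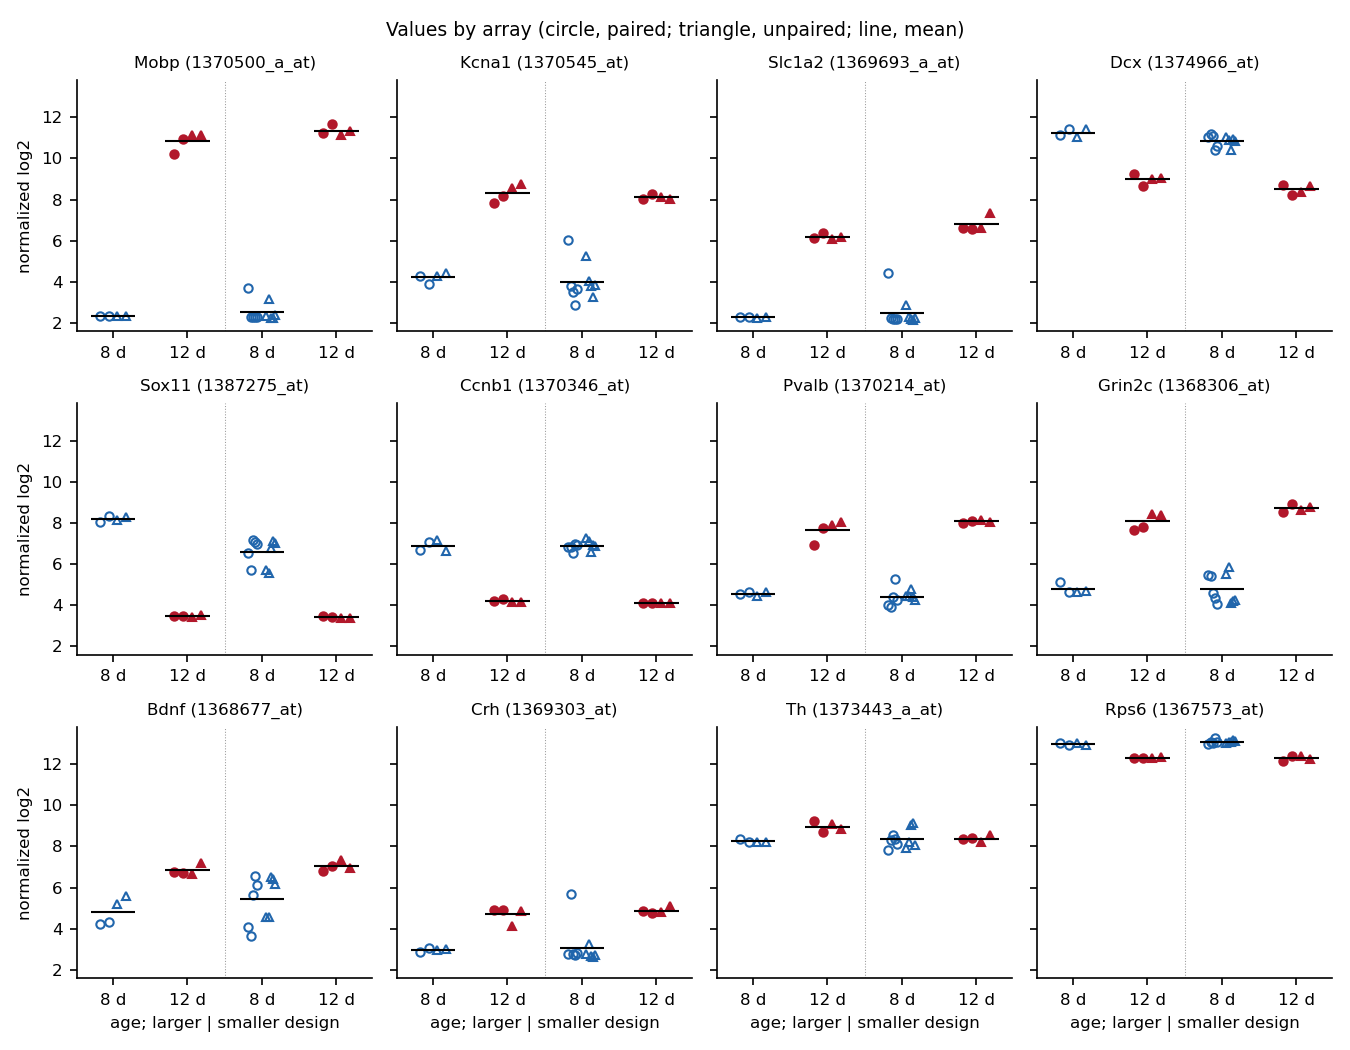
Normalized log2 level of 12 genes (probe set in brackets) in every array, by age and array design; circles are paired pups, triangles unpaired pups, open symbols 8 days, filled symbols 12 days, and lines the mean of an age. The ages are apart on both designs for Mobp, Kcna1, Slc1a2, Dcx, Sox11, Ccnb1, Pvalb, Grin2c, Bdnf and Rps6, and overlap on the smaller design for Crh and Th. Over all probe sets, 33.1% had the ages apart on both designs in the same direction.

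Glutamate receptor genes changed subunit by subunit. Of 27 NMDA and AMPA receptor, kainate receptor and scaffold genes, 9 rose and 5 fell, shares of 33.3% and 18.5% that lay near those of all genes. With values centred on array medians 10 rose and 8 fell. Grin2c, an NMDA receptor subunit found in astrocytes and cerebellar and thalamic neurons of the adult rodent, was at 5.13, 4.66, 4.66 and 4.69 at 8 days and at 7.67, 7.82, 8.45 and 8.37 at 12 days on the larger design. On the smaller design it ran from 4.08 to 5.88 at 8 days, with a median of 4.48, and was at 8.54, 8.91, 8.61 and 8.79 at 12 days. The ages were apart, with differences of 3.30 ± 0.20 and 3.92 ± 0.36. Grin2a, the subunit that joins NMDA receptors as forebrain synapses mature, was at 2.90, 2.76, 2.77 and 2.79 at 8 days and at 4.65, 4.67, 3.70 and 4.59 at 12 days on the larger design. The smaller design gave 2.65 to 3.04 at 8 days and 3.90, 5.23, 4.57 and 5.27 at 12 days. The ages did not overlap, and Grin2a rose by 1.60 ± 0.19 and 1.95 ± 0.20, with a second probe set at 0.27 and 0.33. Grin2b, the juvenile partner subunit, was not called on either design (-0.25 and 0.60).

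The AMPA receptor subunit Gria2, which sets calcium permeability, had opposite signs on the designs (-0.55 ± 0.08 and 0.24 ± 0.09). The kainate receptor subunit Grik4 fell by 1.45 ± 0.14 and by 1.53 ± 0.14, and Grip1, a scaffold that binds AMPA receptors, by 2.52 ± 0.13 and by 2.58 ± 0.11, and by 1.33 and 0.95 in its brighter probe set. Shank1, a postsynaptic scaffold, differed by -2.33 ± 0.10 and -2.43 ± 0.18 in probe set 1387192_at and by 0.30 and 0.36 in 1371792_at, so its direction depended on the probe set. Among metabotropic receptors, 2 of 8 rose and 1 fell, and 1 rose and 3 fell with values centred on array medians. One of the 2 that rose was Grm6, by only 0.05 and 0.04 at levels below 3 log2. Grm4, a presynaptic receptor, rose by 0.56 ± 0.12 and 0.90 ± 0.20, and Grm3, a receptor of glia and neurons, fell by 0.53 ± 0.08 and by 0.50 ± 0.17.

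GABA-A receptor subunit genes moved in both directions. Of 14 genes of the GABA receptor list 4 rose and 2 fell, close to the shares of all genes. With values centred on array medians 3 rose and 4 fell. The list also holds the GABA-B receptor genes Gabbr1 and Gabbr2 and the scaffold gene Gphn. Gabbr1 was 1 of the 4 that rose (0.24 and 0.40). Another of them, Gabrg3, differed by 0.09 and 0.11 at levels below 3 log2. Gabrd, the subunit of extrasynaptic receptors, rose by 2.71 ± 0.19 and 3.40 ± 0.35. Gabra4, its frequent partner, was at 7.37, 7.21, 7.41 and 7.32 at 8 days and at 8.23, 8.33, 8.15 and 8.45 at 12 days on the larger design, and rose by 0.96 ± 0.08 and 1.26 ± 0.23. Gabra3, a subunit that is high in the developing forebrain, was at 5.56, 5.10, 4.45 and 5.23 at 8 days and at 4.11, 3.24, 3.01 and 4.01 at 12 days on the larger design. Values on the smaller design ran from 3.56 to 6.86 at 8 days and were at 3.64, 3.35, 3.34 and 4.17 at 12 days, so the ages overlapped, with differences of -1.50 ± 0.31 and -1.90 ± 0.51. Against saline replicates 1 and 2 alone it was -1.18 and was not called. The chloride exporter gene Slc12a5, whose product makes GABA inhibitory, was not called (0.09 ± 0.05 and 0.13 ± 0.07), whereas the chloride importer Slc12a2 rose by 1.09 ± 0.13 and 0.81 ± 0.08. Gad1, which makes GABA, was not called (-0.10 and -0.24), and Slc32a1, which loads it into vesicles, fell by 0.63 ± 0.09 and by 0.45 ± 0.15.

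**Figure D4:**
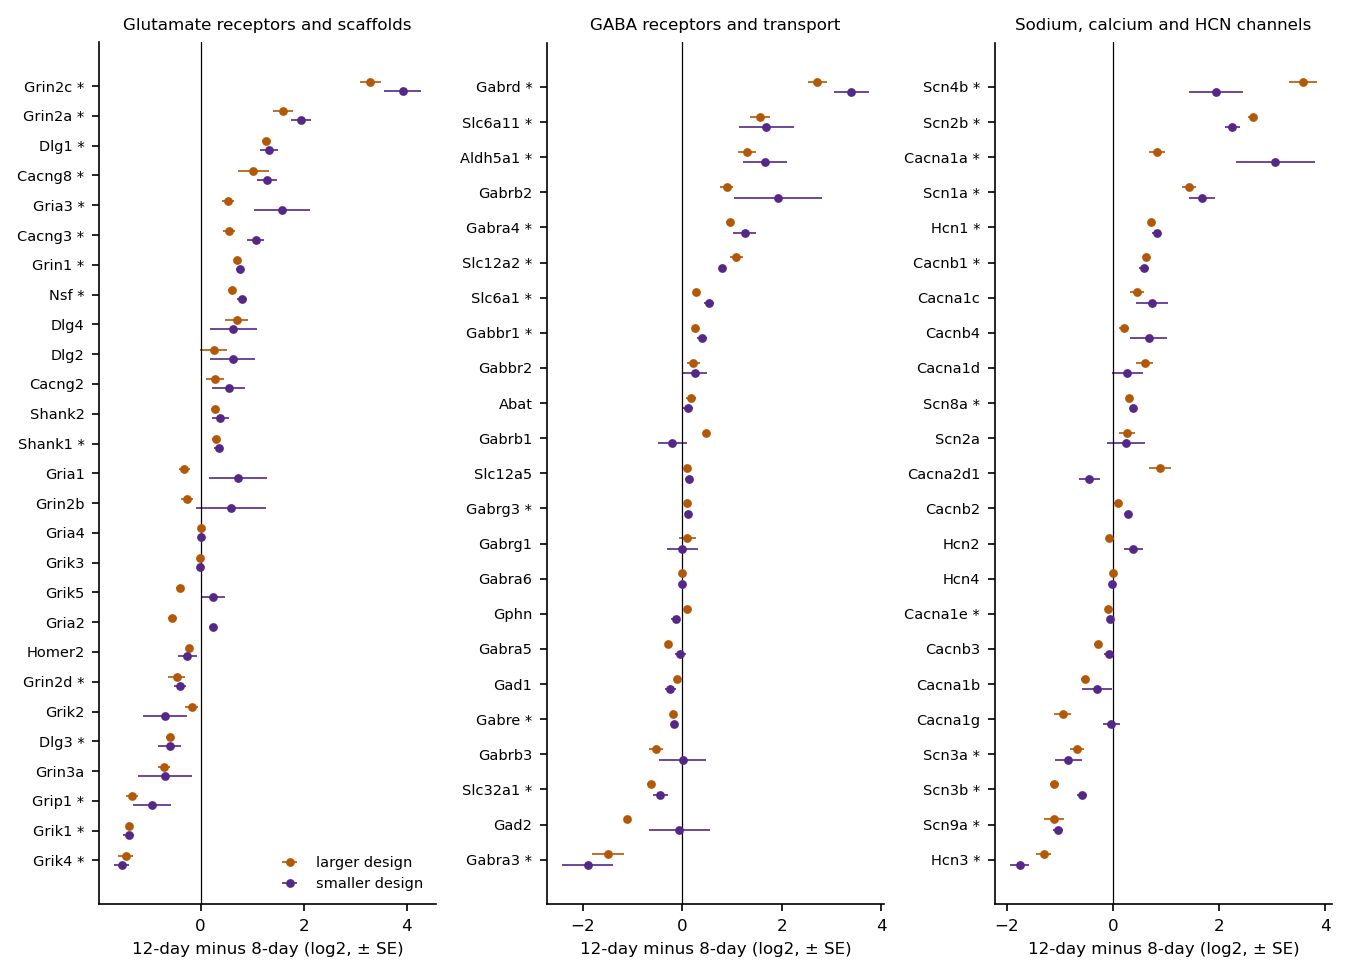
Differences of 12-day minus 8-day saline pups (log2, bars are the standard error) for measured genes of the glutamate receptor, GABA and sodium, calcium and HCN channel lists, on the larger and the smaller array design; an asterisk marks genes called on both designs with the same sign. Grin2c (3.30 and 3.92) and Gabrd (2.71 and 3.40) lie at the top of their panels, and Grik4 (-1.45 and -1.53) and Gabra3 (-1.50 and -1.90) at the bottom. Each gene is plotted by its probe set with the highest mean, so Grip1 and Shank1 stand at other values here than in the probe sets named first in the text.

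Several ion channel genes of mature axons rose. Of 38 potassium channel genes 16 rose (42.1%) and 4 fell (10.5%), against 28.1% and 18.6% of all genes. At least 1 log2 on both designs was reached by 9 that rose. With values centred on array medians 14 rose and 8 fell. Kcna1, the voltage-gated channel clustered beside nodes of Ranvier, was at 4.29, 3.90, 4.29 and 4.41 at 8 days and at 7.82, 8.19, 8.57 and 8.74 at 12 days on the larger design. Its level on the smaller design was 2.85 to 6.01 at 8 days, with a median of 3.80, and 8.04, 8.27, 8.15 and 8.03 at 12 days. The ages were apart, with differences of 4.11 ± 0.14 and 4.12 ± 0.47. Its auxiliary subunit Kcnab2 rose by 2.42 ± 0.07 and 3.58 ± 0.18. The inward rectifier Kcnj4 rose by 2.60 ± 0.33 and 2.65 ± 0.18, and by 0.95 and 0.99 in its brighter probe set. Kcnh1, an ether-a-go-go channel, rose by 2.42 ± 0.13 and 2.87 ± 0.60.

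Of 24 sodium, calcium and HCN channel genes 8 rose (33.3%) and 5 fell (20.8%), near the 28.1% and 18.6% of all genes. Scn1a, a sodium channel pore subunit of mature neurons, rose by 1.43 ± 0.13 and 1.67 ± 0.24. Scn4b, an auxiliary subunit that is high in striatum, rose by 3.58 ± 0.26 and 1.95 ± 0.51, beside the striatal marker sums given above, and was not called on the smaller design against saline replicates 1 and 2 alone (1.28). Hcn3, a pacemaker channel, fell by 1.31 ± 0.14 and by 1.75 ± 0.18. Of 7 neurofilament and vesicular glutamate transporter genes 4 rose and 1 fell: Nefh, the heavy filament of large axons, rose by 1.47 ± 0.17 and 1.05 ± 0.17, and Ina, the filament of young axons, fell by 0.38 ± 0.06 and by 0.57 ± 0.15.

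Several genes of excitatory neurons and of vesicle release rose. Slc17a7, Itpka and Wfs1 belong to the 10 hippocampus and cortex neuron genes whose sum is given above and contribute to it, and another member, Neurod1, fell by 1.95 and by 1.70. Slc17a7, the vesicular glutamate transporter of cortex and basolateral amygdala, was at 9.68, 8.52, 9.04 and 8.95 at 8 days and at 10.40, 10.80, 10.85 and 10.94 at 12 days on the larger design. On the smaller design it ran from 8.23 to 10.91 at 8 days, with a median of 9.81, and was at 12.14, 12.36, 12.16 and 12.18 at 12 days. No arrays of different age overlapped, and the difference was 1.70 ± 0.25 and 2.64 ± 0.51. It was 1.63 against saline replicates 1 and 2 and 3.30 against replicates 5 to 7. Itpka, a kinase of dendritic spines, rose by 2.70 ± 0.36 and 3.02 ± 0.43, and Wfs1, an endoplasmic reticulum protein of hippocampal and amygdala neurons, by 2.71 ± 0.14 and 3.26 ± 0.14, and by 1.73 and 2.35 in its brighter probe set.

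Of 35 synaptic vesicle and SNARE genes 13 rose (37.1%) and 3 fell (8.57%), against 28.1% and 18.6% of all genes. With values centred on array medians 13 rose and 6 fell. Vamp1, a vesicle SNARE, rose by 3.15 ± 0.24 and 2.79 ± 0.31, and by 1.66 and 1.43 in its brighter probe set. The vesicle protein Sv2b rose by 0.92 ± 0.10 and 1.21 ± 0.22, while its brighter probe set was not called on both designs (0.76 and 0.35). Of 22 CaM kinase, protein kinase C and related genes 7 rose (31.8%, near the 28.1% of all genes) and 2 fell (9.09%). Camk2a, the kinase of excitatory synapses, rose by 2.61 ± 0.31 and 2.08 ± 0.39 in probe set 1388187_at and by 0.81 and 0.78 in another. Prkar2b, a regulatory subunit of protein kinase A, fell by 0.87 ± 0.08 and by 1.11 ± 0.11.

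Interneuron and peptide genes gave a mixed picture. Of 17 interneuron genes 5 rose (29.4%, near the 28.1% of all genes) and 1 fell. With values centred on array medians 6 rose and 4 fell. Pvalb, the calcium buffer of fast-spiking interneurons, was at 4.54, 4.64, 4.47 and 4.64 at 8 days and at 6.95, 7.75, 7.90 and 8.04 at 12 days on the larger design. The smaller design gave 3.94 to 5.30 at 8 days, with a median of 4.41, and 7.99, 8.09, 8.16 and 8.07 at 12 days. The ages were apart on both, with differences of 3.09 ± 0.21 and 3.65 ± 0.21. Vip, the peptide of another interneuron class, rose by 2.31 ± 0.21 and 2.83 ± 0.52, while Sst, the peptide of a further class, was not called (-0.19 and -0.66). Of 20 opioid and other peptide genes 7 rose (35%) and 1 fell (5%). With values centred on array medians 6 rose and 3 fell. Trh (thyrotropin-releasing hormone) rose by 1.95 ± 0.28 and 2.10 ± 0.16, Tac3 (neurokinin B) by 2.16 ± 0.15 and 1.67 ± 0.34, and Vgf, a secreted neuropeptide precursor, by 1.16 ± 0.08 and 1.20 ± 0.09.

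Many activity-regulated genes were higher in 12-day pups. Of 20 immediate early genes 12 rose (60%, against 28.1% of all genes) and none fell, with list medians of 0.51 and 1.17. In other probe sets 2 of these genes fell. With values centred on array medians 12 rose and 4 fell. Nr4a1, an orphan nuclear receptor induced by activity, was at 7.34, 7.22, 7.47 and 6.80 at 8 days and at 9.28, 9.81, 8.76 and 9.09 at 12 days on the larger design. Values on the smaller design ran from 5.67 to 7.02 at 8 days, with a median of 6.54, and were at 9.12, 9.31, 8.98 and 9.01 at 12 days. The ages were apart, with differences of 2.03 ± 0.20 and 2.59 ± 0.21. The transcription factors Egr4 and Junb rose by 2.63 ± 0.13 and 2.74 ± 0.12, and by 2.34 ± 0.31 and 2.63 ± 0.25. Homer1, a synaptic scaffold with an activity-induced short form, rose by 3.04 ± 0.19 and 4.49 ± 0.33 in probe set 1370454_at, and 3 of its 4 other probe sets also rose, by 0.20 to 1.25 on the larger design. All pups were killed after the same session, and no untrained pups were analysed here, so a basal difference and a difference in the response to the session cannot be told apart.

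Bdnf, a neurotrophin of activity-dependent plasticity, was at 4.24, 4.32, 5.19 and 5.57 at 8 days and at 6.75, 6.72, 6.67 and 7.21 at 12 days on the larger design. Its level on the smaller design was 3.63 to 6.57 at 8 days, with a median of 5.90, and 6.83, 7.03, 7.33 and 6.95 at 12 days. Bdnf rose by 2.01 ± 0.22 (adjusted p = 0.00019) and 1.60 ± 0.55 (adjusted p = 0.025), by 2.95 against saline replicates 1 and 2 and by 0.79 against replicates 5 to 7. The call was lost when 12-day paired replicate 1, paired replicate 2 or unpaired replicate 1 was left out. A second Bdnf probe set was not called (0.03 and 0.07). In the neurotrophin list as a whole 2 of 16 genes rose and 1 fell, fewer than the shares of all genes, and 2 rose and 5 fell with values centred on array medians.

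Among stress axis genes more rose than fell. Of 18 measured, 8 rose (44.4%) and 1 fell (5.56%), against 28.1% and 18.6% of all genes. With values centred on array medians 9 rose and 4 fell. Crh, the corticotropin-releasing hormone also made in the central amygdala, was at 2.86, 3.07, 2.95 and 3.0 at 8 days and at 4.90, 4.91, 4.15 and 4.88 at 12 days on the larger design. On the smaller design it ran from 2.63 to 5.69 at 8 days, with a median of 2.78, and was at 4.88, 4.76, 4.80 and 5.10 at 12 days. One 8-day array, paired replicate 2 at 5.69, lay above all 12-day arrays, and Crh rose by 1.74 ± 0.17 and 1.80 ± 0.45. Against saline replicates 1 and 2 alone the Crh difference was 1.29 and was not called. Nr3c1, the glucocorticoid receptor, was at 8.22, 8.28, 8.21 and 8.41 at 8 days and at 8.74, 9.0, 8.81 and 8.64 at 12 days on the larger design. It rose by 0.52 ± 0.09 there and by 1.11 ± 0.32 on the smaller design, where the ages overlapped. Nr3c2, the mineralocorticoid receptor, rose by 0.86 ± 0.16 and 0.84 ± 0.23. Neither Nr3c1 nor Nr3c2 was called on both designs in paired pups alone or in unpaired pups alone. Hsd11b1, which regenerates active glucocorticoid, rose by 0.92 ± 0.09 and 0.72 ± 0.14, and Klf9, a glucocorticoid and thyroid hormone target, by 1.37 ± 0.13 and 1.23 ± 0.20.

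Dopamine genes, which the series title names, showed little change that held on both designs. Of 8 dopamine receptor and breakdown genes 1 rose and 1 fell. Of 11 midbrain dopamine genes 1 rose and 1 fell, and both lists lay below the shares of all genes. In the first list the gene that fell was Drd4 (-0.05 and -0.05). In the second the gene that rose was Foxa2 (0.03 and 0.04). Drd4 and Foxa2 had levels below 3 log2. With values centred on array medians, 1 rose and 3 fell in the first list and 0 rose and 5 fell in the second. Over all probe sets that centring gave 2397 higher and 6927 lower. Drd1 and Drd2, the main dopamine receptors, differed by 0.44 ± 0.17 and 0.19 ± 0.15 on the larger design and by -0.58 ± 0.69 and -0.39 ± 0.44 on the smaller one, and neither was called on both. Th, the rate-limiting enzyme of dopamine synthesis, was at 8.37, 8.22, 8.23 and 8.23 at 8 days and at 9.24, 8.69, 9.10 and 8.83 at 12 days on the larger design. The smaller design gave 7.83 to 9.15 at 8 days and 8.35, 8.39, 8.21 and 8.55 at 12 days, so the difference was 0.70 ± 0.13 (adjusted p = 0.0023) and 0.02 ± 0.22 (adjusted p = 0.95). Maob, which breaks down dopamine in glia, rose by 0.71 ± 0.14 and 1.02 ± 0.22. Slc18a2, the vesicular monoamine transporter of dopamine, serotonin and noradrenaline terminals, fell by 2.35 ± 0.30 and by 1.63 ± 0.34, and a second probe set, at -1.35 and -1.02, was not called on both designs.

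Other monoamine receptors moved in both directions, with 6 of 23 serotonin and noradrenaline genes rising (26.1%) and 5 falling (21.7%), near the shares of all genes. With values centred on array medians 3 rose and 14 fell, where over all probe sets 2397 rose and 6927 fell. The alpha-1 adrenoceptor Adra1d rose by 3.10 ± 0.15 and 4.39 ± 0.17, whereas Adra1b fell by 1.20 ± 0.19 and by 0.76 ± 0.09. The serotonin receptors Htr2a and Htr2c rose by 1.70 ± 0.12 and 1.70 ± 0.29, and by 1.27 ± 0.25 and 1.00 ± 0.39 (the call of Htr2c was lost in 10 of the 22 fits that left out 1 array). For Htr2a, 3 other probe sets were not called on both designs. The serotonin transporter gene Slc6a4 fell by 2.46 and by 3.05.

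Ribosomal protein genes fell by small amounts. Of 53 measured, 33 fell (62.3%) and none rose at 1 probe set per gene, with list medians of -0.20 and -0.49. In other probe sets 3 of these genes rose. The number that fell was 27 with within-array ranks and 39 with values centred on array medians. Rps6, a protein of the small subunit, was at 13.03, 12.94, 13.03 and 12.95 at 8 days and at 12.32, 12.30, 12.28 and 12.33 at 12 days on the larger design. Values on the smaller design ran from 12.98 to 13.26 at 8 days and were at 12.17, 12.41, 12.41 and 12.25 at 12 days, and it fell by 0.68 ± 0.03 and by 0.78 ± 0.06, a 1.60-fold and 1.71-fold change. Its second probe set was not called on both designs (-0.83 and -0.06). Rpl22 rose in probe set 1371414_at (1.01 and 1.33) and fell in the brighter 1370253_at (-0.24 and -0.87). The brighter one differed by -0.25 against saline replicates 1 and 2 and by -1.3 against replicates 5 to 7. Many ribosomal protein genes have near-identical pseudogene copies, so their probe sets may be shared.

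Some energy metabolism genes rose by small amounts. Of 31 respiratory chain and ATP synthase genes 12 rose (38.7%) and none fell. Of 22 glycolysis and lactate genes 9 rose (40.9%) and none fell. Over all genes 28.1% rose and 18.6% fell. None of either list rose by as much as 1 log2 on both designs at 1 probe set per gene. Sdha, of succinate dehydrogenase, rose by 0.63 ± 0.08 and 0.66 ± 0.09, and Cox6c, of cytochrome oxidase, by 0.47 ± 0.05 and 0.37 ± 0.07. Pfkm, which commits glucose to glycolysis, rose by 0.86 ± 0.06 and 0.98 ± 0.13, and Slc2a3, the neuronal glucose transporter, by 1.10 ± 0.13 and 1.49 ± 0.38, with its brighter probe set not called on both designs (0.46 and 0.14). Of 22 ketone body and fatty acid genes 6 rose and 6 fell, with the lipid enzymes Acaca and Fads2 at -1.57 ± 0.10 and -1.27 ± 0.40, and at -1.21 ± 0.11 and -0.89 ± 0.20. The brighter Acaca probe set differed by -0.62 and -0.48. Among 15 genes often used as references, 3 rose and 2 fell, and Actb and Gapdh were not called on both designs (-0.09 and 0.12, and 0.08 and 0.17).

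The 6 corticosterone arrays, also of 8-day pups and on the smaller design, give a further set of 8-day values. Against them 13039 probe sets (82.2%) were called, 43.3% higher and 38.9% lower at 12 days, and these arrays had been normalized by the authors on a lower scale (medians of 5.06 to 5.09). The comparison shares the 4 12-day arrays of that design. For most genes plotted the 3 saline sets and the corticosterone arrays stood on the same side of the 12-day pups, as for Mobp (8.51, 8.62, 9.08 and 8.33 in the order larger design, replicates 1 and 2, replicates 5 to 7, corticosterone). For some decreasing genes they did not, or barely so. Of those named for other reasons above, Birc5 gave -0.59, -0.66, -0.49 and 0.97, and Cyp26b1 gave -1.06, -1.14, -1.38 and 0.60. Cdk1 and Mcm6 stayed lower at 12 days than in the corticosterone arrays (-1.80 and -2.09). Ccnb1 gave -2.69, -3.06, -2.69 and 0.87, Top2a (1388650_at) -1.38, -1.36, -1.30 and 0.31, Neurod1 -1.95, -2.62, -1.14 and 0.82, and Epcam -2.74, -2.69, -2.50 and -0.07. Among increasing genes Camk2a gave 2.61, 2.80, 1.67 and -0.07, and C1qb 1.60, 1.60, 0.75 and -0.22. Corticosterone went with the authors' separate normalization, and the 2 cannot be told apart.

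**Figure D5:**
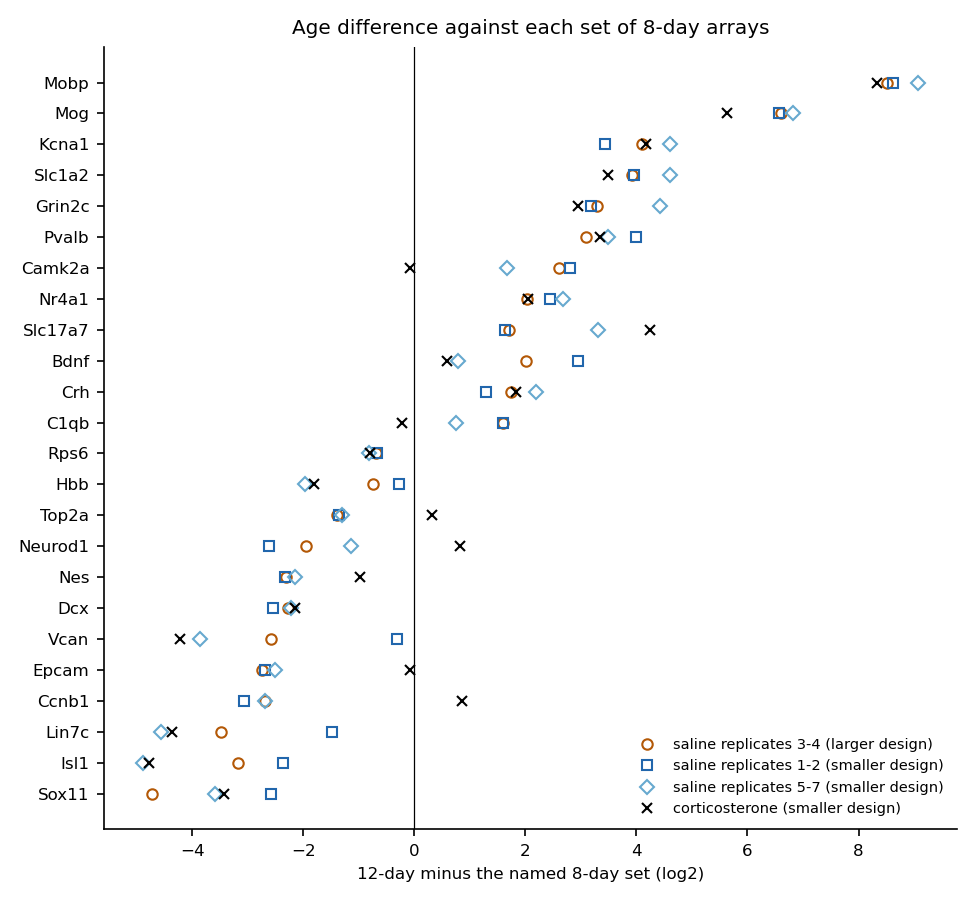
Differences of 12-day pups from each of 4 sets of 8-day arrays (log2, x axis) for 24 genes: saline replicates 3 and 4 on the larger design, saline replicates 1 and 2 and replicates 5 to 7 on the smaller design, and corticosterone arrays on the smaller design. Mobp, Mog, Dcx and Rps6 lie close together, Vcan and Lin7c separate the saline sets, and Ccnb1, Neurod1, Camk2a and Epcam separate corticosterone from saline.

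Whether the age difference itself depended on training was tested as an interaction. On the larger design 3 probe sets (0.0189%) were called by limma and on the smaller design 0 (0%), with 816 and 211 at an unadjusted p under 0.05. Among the called ones were Syt9 (0.82 ± 0.03, paired minus unpaired age difference) and a probe set without a symbol (0.02), both with mean levels below 3 log2 at both ages, where the arrays resolve little. On the smaller design their interaction values were 0.11 and 0.00. None of the genes named above was called for this interaction on either design, which does not show that training left their age difference the same.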

How the data were processed

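Total RNA of amygdala tissue was hybridised to Affymetrix arrays, and samples were grouped by age, agent and training from their titles. The deposited values are log2 expression of probe sets, 1 column per array. RMA and GCRMA are listed in the submitters' processing notes, with neither version nor role. Each condition was normalized on its own, as the array medians show. Background model and software are not given in the sources used here, no detection calls were used, and the number of arrays limits the precision. The authors' comparison table of the saline condition gave gene symbols only.

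The 15866 probe sets on both designs were quantile-normalized within each design. They were fitted with limma 3.58.1 in R 4.3.3 (lmFit, eBayes with a mean-variance trend, training as covariate, two-sided, Benjamini-Hochberg over all probe sets, threshold 0.05). The fit was tested on simulated data. Calls had to hold on both designs with the same sign. Symbols were updated through RefSeq (assembly GRCr8): 3080 probe sets matched by accession, 1890 by current symbol and 727 by an earlier symbol; for 330 the deposited symbol was used, and 9839 had none, leaving 4837 genes.

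Named genes were called genes with a mean of at least 6 log2 in the higher age, the 12 per direction with the largest smaller absolute difference of the 2 designs. Up to 4 called genes per gene list at a mean of at least 5, and a fixed list of maturation markers whatever they did, were added. Some genes are not reported here. Sox10, Olig1, Enpp2, Sirt2, Cntn2, Qdpr, Ptprc, Cyp26b1, Ccnd1, Birc5, Slc6a4, Actb, Gapdh and Syt9 lie outside this rule and were named after their values were seen. The probe set with the highest mean stands for a gene in list counts, so a gene may be named by another. The groups compared, the members and the 40 lists were chosen with earlier results of these data known, so their counts are descriptions. The sex-linked list had no gene measured. Marker sums add the linear normalized levels of a list on an array. Promoter windows were taken from the RefSeq table, the first per gene. Alternatives were median centring, within-array ranks, quantile normalization over all 22 arrays, a level filter, no covariate, no trend, a replicate block, 1 training at a time, each saline set, corticosterone arrays as the 8-day group, a joint fit and leaving out each array. Figures used Python 3.11.15 and matplotlib 3.10.9.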

Additional observations from a re-analysis of the deposited data

Results flagged for a closer look

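For 25 probe sets of 22 genes, each age on each design was checked for a single array far from the others. This made 100 checks in all, with paired and unpaired pups together. Most of these genes have their arrays given one by one above, though not in every probe set checked. Chance marks about 1 in 20 such checks, and 14 were marked. Among 8-day saline arrays, Crh was at 5.69 in paired replicate 2 (the others 2.63 to 3.28), Mbp probe set 1387341_a_at was at 7.44 in the same array (the others 9.58 to 11.15), and Slc1a2 was at 4.42 in paired replicate 1. Aif1 was at 5.46 in unpaired replicate 5, Grin2c was at 5.13 and Th at 8.37 in paired replicate 3. Among 12-day arrays, paired replicate 3 was low for Mobp probe set 1370434_a_at (11.16), and unpaired replicate 3 was low for Crh (4.15) and Grin2a (3.70). Paired replicate 2 was low for Nr3c1 (7.63) and high for Mbp probe set 1387341_a_at (14.16). Unpaired replicate 4 was high for Bdnf (7.21) and low for Top2a probe set 1388650_at (6.02), and unpaired replicate 2 was high for Slc1a2 (7.35).

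The age difference differed between paired and unpaired pups for 3 probe sets on the larger design by the interaction test, among them Syt9 (0.82) and 1377128_at (0.02), both at levels below 3 log2. On the smaller design 0 were called.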

How the results depend on the processing

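The count of probe sets called on both designs, 6989 as reported, lay between 6131 and 9324 under array-median centring, ranks, joint quantile normalization, no covariate, no trend, either saline set and corticosterone arrays as the 8-day group, and was 10017 in a joint fit with the design as a block. The total fell to 3794 with a mean of at least 5 log2 required, to 3838 in paired and 3642 in unpaired pups alone (fewer arrays), and to 1151 with at least 1 log2 required. Similar totals did not mean the same probe sets. Of the 6989, 5193 were also called with the same sign under median centring and 5633 with corticosterone arrays. That number was 6182 with saline replicates 1 and 2, 6676 with replicates 5 to 7 and 6805 with ranks. The larger design gave 6235 with the level filter and 1505 with at least 1 log2. The smaller design gave 4812 with the filter, 4712 and 4491 in paired and unpaired pups alone, 1831 with at least 1 log2 and 13039 against corticosterone arrays. Leaving out 1 array gave 6153 (without 12-day unpaired replicate 1) to 7139 called on both designs, 10010 to 10453 on the larger and 7107 to 8700 on the smaller. The interaction with training gave 9 to 33 calls on the larger design and 0 to 18 on the smaller one when 1 array was left out, 0 with the filter on the larger design and 1 with ranks on the smaller one.

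With a replicate block the calls on both designs numbered 6740, and the interaction gave 2 and 0. Of the named probe sets 17 lost the call with the block, among them Crh, Gabra3, Nr3c1, Nr3c2, Grm3, Scn4b and Vcan. Same-numbered arrays of the 2 ages showed deviations correlated between -0.19 and 0.14, and the numbers were not taken to pair the samples. With 2 arrays per group on the larger design, replicates 3 and 4 gave the same correlation by construction. So few independent values cannot decide whether same-numbered arrays belonged together.

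Of 5267 checks on 155 named probe sets, 5045 left the call as it was, 213 lost it and 9 gained it. The sign turned on the smaller design for some, among them Ccnb1, Top2a and Neurod1, with corticosterone arrays as the 8-day group. For the called ones of the 155 the mean over both designs kept its sign under these alternatives. With corticosterone arrays or 1 saline set, the larger-design value in that mean was the unchanged one. The mean is therefore no check on a sign that turned on the smaller design. Leaving out 1 array ended the call of 16 probe sets, among them Vcan, Nr2f2, Htr2c, Grm3, Slc32a1, Acaca, Bdnf and Hbb (1371102_x_at). In paired pups alone 43 lost the call, among them Crh, Bdnf, Slc17a7, Slc18a2 and Gabra4, and in unpaired pups alone 36, among them Bdnf, Gfap, Gap43, C1qb and Maob. With saline replicates 1 and 2 alone 17 lost the call, among them Crh, Gabra3, Lin7c and Scn4b. With values centred on array medians 1 did (Cox6c). Low levels limit the size of differences that start or end under 4 log2.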

Other observations

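Genes of other brain territories and of hormone signalling also moved. Nkx2-1, a homeobox factor of the ventral forebrain and hypothalamus, fell by 1.23 ± 0.24 on the larger and by 1.23 ± 0.24 on the smaller design. Of 16 thalamus and hypothalamus genes 3 rose and 2 fell, and 2 rose and 4 fell with values centred on array medians. Mgp, a matrix inhibitor of calcification made by vessel walls, rose by 0.68 ± 0.09 and 1.45 ± 0.22. Ret, a receptor for glial-derived growth factors, fell by 1.34 ± 0.05 and by 1.63 ± 0.23 in 1 probe set, while its other 2 probe sets were not called on both designs.

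The largest decrease over all probe sets, by the smaller of its differences on the designs, was at probe set 1374762_at, which has no gene symbol in the tables used and was picked with its values known. It differed by -6.27 on the larger and -6.33 on the smaller design. Among probe sets without a symbol, also picked in this way, the largest increase was at 1391864_at, which differed by 4.56 and 4.58.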
